A study of Mus musculus with 13 samples.

Results

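LSD1 and HDAC3, the histone-modifying enzymes of 2 corepressor families, were mapped by chromatin immunoprecipitation with sequencing (ChIP-seq) in Ba/F3 cells kept without interleukin 3 (IL3), and the regions called for LSD1 were set against those called for HDAC3. The members are the called regions of 4 libraries, 2 biological replicates for each protein, on the assembled chromosomes of the mm10 mouse genome. The LSD1 lists held 1005 and 15783 regions and the HDAC3 lists 1632 and 533, 18953 of the 62621 regions in the 12 library lists of the series. The authors' lists called on the pooled replicates, with 16886 LSD1 and 3347 HDAC3 regions, were used as support. A region was shared when it overlapped a region of the other protein by 1 bp or more, and was otherwise counted as bound by that protein alone.

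Ba/F3 is an established mouse pro-B cell line whose growth depends on IL3. All 4 libraries came from cells cultured in 1 ng/mL IL3 and then deprived of it for 6 h, immunoprecipitated with an antibody to LSD1 (ab17721) or to HDAC3 (sc11417X). The series also holds 1 input DNA library, with no list used here. It also mapped STAT5A, and mapped all 3 proteins after the same deprivation followed by 10 ng/mL IL3 for 30 min. No RNA was measured in the lists, so the cell type could not be checked against its markers. In bulk chromatin a protein present in more cells and more protein per cell cannot be told apart.

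LSD1, encoded by Kdm1a, removes methyl groups from histone tails and acts mainly within CoREST complexes, which DNA-binding repressors such as GFI1 and GFI1B bring to their targets. HDAC3 removes acetyl groups and depends for its activity on NCoR corepressor complexes, which also carry TBL1X and TBLR1 (Tbl1xr1). Both complexes repress genes of alternative blood lineages in haematopoietic cells, and LSD1 also sits at the promoters of many active genes.

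Regions at gene starts illustrate the 3 classes, and the sequence under them is given from the RefSeq promoter windows of GRCm38.p6, the assembly of mm10. The genes shown were chosen after their values were seen. Each sequence is the stretch of the called region inside the window, 5′ to 3′ on the strand of the gene, and capitals mark a match to a motif searched. Bound by LSD1 alone were Tigar, a regulator of sugar phosphate breakdown (chr6:127109672-127109802, minus strand), and Gfi1b, the repressor that recruits LSD1 (chr2:28621933-28622052, minus strand).

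Tigar: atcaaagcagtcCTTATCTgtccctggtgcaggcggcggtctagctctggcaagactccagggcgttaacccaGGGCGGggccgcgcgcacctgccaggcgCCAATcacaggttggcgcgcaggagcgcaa

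Gfi1b: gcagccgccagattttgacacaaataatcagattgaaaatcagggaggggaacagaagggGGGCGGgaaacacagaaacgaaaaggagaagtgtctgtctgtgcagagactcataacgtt

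The capitals in Tigar mark the GATA motif (AGATAAG, found on the other strand), the SP motif (GGGCGG) and the NFY motif (CCAAT), and those in Gfi1b an SP motif. The Tigar region scored 226.8 and 350.4 in the LSD1 lists and lay in neither HDAC3 list, with its nearest HDAC3 region 127639 bases away. The Gfi1b region scored 90.7 and 131.0 in the LSD1 lists and again had no HDAC3 call, the nearest lying 2849 bases off. Shared regions lay at the starts of Milr1, an inhibitory receptor of mast cells (chr11:106751103-106751275, plus strand), Tbl1xr1 (chr3:22076592-22076701, plus strand) and Tfr2, a transferrin receptor (chr5:137570811-137570957, plus strand).

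Milr1: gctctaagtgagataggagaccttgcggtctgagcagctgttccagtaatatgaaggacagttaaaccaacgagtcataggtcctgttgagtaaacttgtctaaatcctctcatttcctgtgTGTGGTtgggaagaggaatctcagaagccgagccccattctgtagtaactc

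Tbl1xr1: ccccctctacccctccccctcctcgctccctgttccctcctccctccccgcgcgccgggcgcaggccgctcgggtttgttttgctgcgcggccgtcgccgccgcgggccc

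Tfr2: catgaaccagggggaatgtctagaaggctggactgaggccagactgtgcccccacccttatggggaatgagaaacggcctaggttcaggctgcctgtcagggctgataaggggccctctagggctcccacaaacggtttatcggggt

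The capitals in Milr1 mark a RUNX motif (TGTGGT), and no motif searched matched the Tbl1xr1 or Tfr2 stretch. Milr1 scored 121.0 and 182.8 in the LSD1 lists and 39.5 in the HDAC3 list of replicate 1. Tbl1xr1 scored 42.7 in LSD1 replicate 2 and 107.2 in HDAC3 replicate 1. Tfr2 scored 124.9 in LSD1 replicate 2 and 50.8 and 25.7 in the HDAC3 lists, so that of the 3 regions Tfr2 was called in both HDAC3 replicates and Milr1 in both LSD1 replicates. HDAC3 alone was called at the starts of Sumo3, a small ubiquitin-like modifier (chr10:77606520-77606647, plus strand), and Jak2, the kinase of the IL3 receptor (chr19:29251641-29251787, plus strand).

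Sumo3: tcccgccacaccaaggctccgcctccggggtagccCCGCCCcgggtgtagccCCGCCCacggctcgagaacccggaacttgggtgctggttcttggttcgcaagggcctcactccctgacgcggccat

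Jak2: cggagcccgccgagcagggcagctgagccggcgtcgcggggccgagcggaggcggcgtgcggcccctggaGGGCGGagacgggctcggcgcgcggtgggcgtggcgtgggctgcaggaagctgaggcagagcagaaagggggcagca

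Their capitals mark SP motifs, on the other strand in Sumo3. Both regions came from HDAC3 replicate 1, with scores of 56.4 at Sumo3 and 45.1 at Jak2, and lay in no list of replicate 2. At Sumo3 the nearest LSD1 region was 15511 bases away, but at Jak2 an LSD1 region ended 70 bases from it.

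The 4 lists differed in depth. The score is the authors' value with no stated definition, and it moved in whole steps within a list. If 1 step is 1 read, relative depth was 1 and 4.96 in the LSD1 libraries and 2.68 and 4.12 in the HDAC3 libraries. The weakest regions stood at 4 or 5 steps in every list. The shallowest library, LSD1 replicate 1, had 1005 regions and the deepest, LSD1 replicate 2, had 15783, while HDAC3 replicate 2 had fewer regions than the shallower HDAC3 replicate 1. The part of depth in region number was not tested. On the log2 scale LSD1 averaged 11.96 ± 2.81 and HDAC3 9.87 ± 1.14 (SD, n = 2 each), a difference of 2.09 that lay within the spread between replicates (two-sided exact permutation p = 0.667). With 2 lists against 2 the smallest p is 0.333, so no difference between the proteins over replicate lists could pass 0.05. Without LSD1 replicate 2 the log2 difference was 0.11, against 4.08 without LSD1 replicate 1.

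HDAC3 regions mostly lay on LSD1 regions, whereas most LSD1 regions had no HDAC3 call. In the pooled lists 2328 regions were shared, 13.8% of the LSD1 regions (95% Wilson interval 13.3 to 14.3%) and 69.6% of the HDAC3 regions (68.0 to 71.1%). These intervals cover counting error only. The HDAC3 share rested on LSD1 replicate 2. That list overlapped 80.8% of HDAC3 replicate 1 and 52.9% of HDAC3 replicate 2, whereas LSD1 replicate 1 overlapped 17.0% and 15.0% of them. Read the other way, HDAC3 replicate 1 overlapped 27.6% of LSD1 replicate 1 and 8.35% of LSD1 replicate 2, and HDAC3 replicate 2 overlapped 7.96% and 1.79%. Within a protein, 76.7% of LSD1 replicate 1 overlapped LSD1 replicate 2. The HDAC3 replicates shared 161 regions, 9.87% of replicate 1 and 30.2% of replicate 2, so each HDAC3 list overlapped LSD1 replicate 2, the longest list, more often than it overlapped the other HDAC3 list.

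Merging the 4 replicate lists gave 16561 regions, of which 16013 held LSD1, 1995 held HDAC3 and 1447 held both. LSD1 without HDAC3 accounted for 14566 and HDAC3 without LSD1 for 548. A single list, LSD1 replicate 2, supplied 13876 of the merged regions by itself. Asking for both replicates left 466 regions with LSD1 and no HDAC3, 4 regions with HDAC3 and no LSD1, and 71 regions in all 4 lists. The 4 HDAC3 regions, named because there were so few, were nearest Zfp36l2, Nol4l, Tiparp and Sema4b. At Zfp36l2 (124.1 and 40.4 in the HDAC3 lists) an LSD1 region began 18 bases away, and those at Tiparp and Sema4b touched a region of the pooled LSD1 list. At Nol4l (33.8 and 25.7) the nearest LSD1 region was 812 bases off.

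Overlap varied with score. Each pooled list was cut into 10 bins of equal size by score, bin 1 the highest. Equal scores were split between bins by genome position, so some lower bins do not differ in score. HDAC3 bins 8 and 9 both held only the score 15.6, and LSD1 bin 8 only 20.3. In bin 1 of LSD1 49.5% of regions were shared, and in bin 10 2.43%. In bin 1 of HDAC3 91.6% were shared, and in bin 10 46.9%. Shared LSD1 regions had a median score of 40.6, against 22.8 for LSD1 regions alone, and shared HDAC3 regions had a median of 20, against 15.6 for HDAC3 regions alone. The share overlapping STAT5A was 32.3% in bin 1 and 8.29% in bin 10 of LSD1, and 51.8% and 17.0% in those of HDAC3. Regions near a gene bound, meaning within 1 kb of the start or end of a protein-coding gene, ran the other way, with 13.3% in bin 1 and 36.9% in bin 10 of LSD1 and 8.38% and 37.6% in those of HDAC3.

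**Figure D1:**
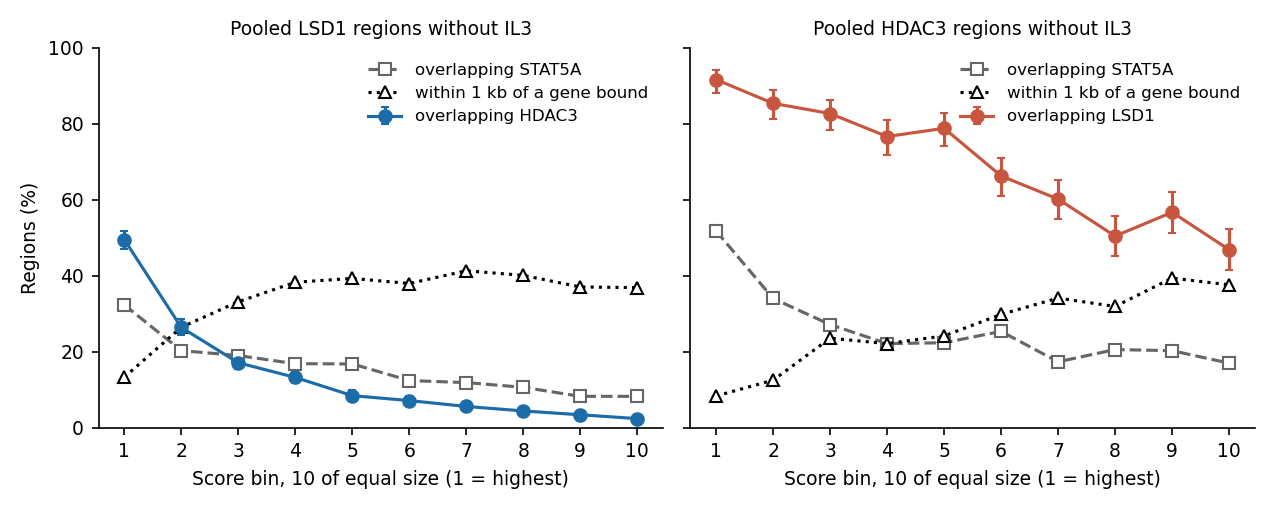
Share of the pooled LSD1 (left) and HDAC3 (right) regions in each of 10 score bins (x axis, 1 is the highest) that overlapped the other protein (filled circles, bars are 95% Wilson intervals), overlapped the pooled STAT5A list without IL3 (squares) or lay within 1 kb of a gene bound (triangles), in percent (y axis). Overlap with the other protein was 49.5% in bin 1 and 2.43% in bin 10 of LSD1, and 91.6% and 46.9% in those of HDAC3, while gene-bound regions were scarcest in bin 1 of both.

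Shared regions and regions alone were also compared within a bin. Bin 1 is wide, with scores of 50.7 to 639.1 for LSD1 and 31.1 to 326.9 for HDAC3, while bin 2 runs from 38 to 50.7 and from 24.5 to 31.1. Within bin 1 of LSD1, 44.9% of shared regions and 20.1% of LSD1 regions alone overlapped STAT5A, and 9.33% of shared regions and 17.3% of those alone lay within 1 kb of a gene bound. Within bin 1 of HDAC3, 55.2% of shared regions and 14.3% of the 28 HDAC3 regions alone overlapped STAT5A. In bin 2 the STAT5A shares were 30.0% of shared regions and 16.8% of LSD1 regions alone, and 37.1% of shared regions and 16.3% of the 49 HDAC3 regions alone. In all 10 bins of each list the shared regions overlapped STAT5A more often than those of 1 protein alone. The gene-bound share was lower in shared regions in 9 of the 10 bins of each list, the exception being bin 10.

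Where both proteins were called, their scores ranked regions alike in part. Across the 2328 shared pooled regions Spearman's rank correlation was 0.49. This is a description over regions of the same pooled libraries, which are not independent. The rank correlation was 0.24 for LSD1 replicate 1 with HDAC3 replicate 1 (n = 277), 0.43 with HDAC3 replicate 2 (n = 80), and 0.38 and 0.36 for LSD1 replicate 2 with the HDAC3 replicates (n = 1318 and 282). Between replicates it was 0.51 for LSD1 (n = 771) and 0.34 for HDAC3 (n = 161), so the 4 values between the proteins lay on both sides of that between HDAC3 replicates and below that between LSD1 replicates. The rank correlation was 0.59 at the 780 shared regions with STAT5A and 0.42 at the 1548 without, and 0.35 at the 502 regions within 1 kb of a gene bound and 0.48 at the 1826 others. The centres of paired regions lay a median of 38 bp apart, and 60.8% lay within 50 bp.

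**Figure D2:**
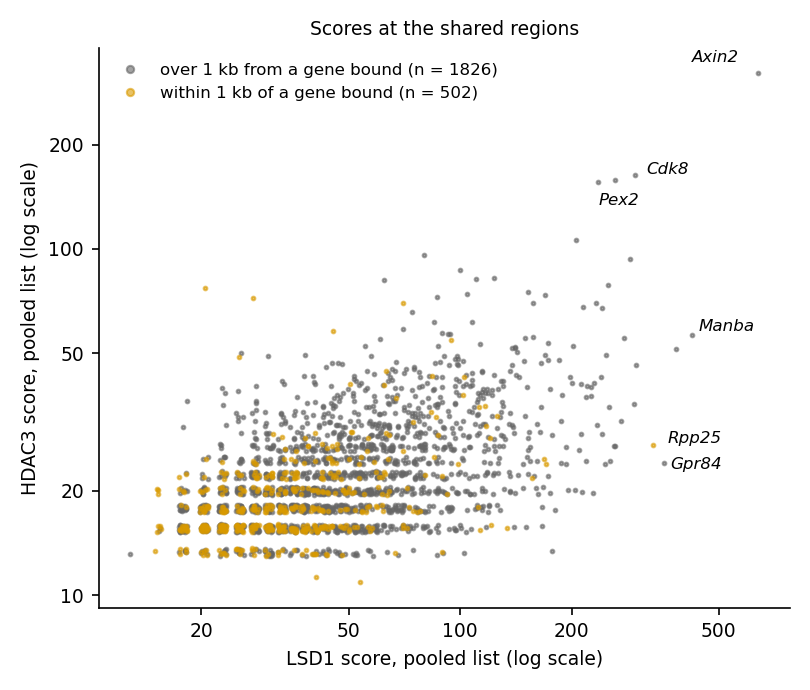
Score in the pooled LSD1 list (x axis, log scale) against score in the pooled HDAC3 list (y axis, log scale) at the 2328 shared regions, each point 1 region (yellow within 1 kb of a gene bound, grey farther), moved slightly so that equal scores can be seen. Points near Axin2, Cdk8 and Pex2 stand at the top of both scales, whereas Gpr84 and Rpp25 have LSD1 scores of 347.4 and 339.8 and HDAC3 scores of 24.5 and 26.7, above the median of 20 for shared HDAC3 regions.

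The strongest shared region lay 61130 bp from Axin2, a feedback inhibitor of Wnt signalling, with scores of 952.5 and 575.9 in the LSD1 lists and 473.8 and 231.3 in the HDAC3 lists. A region inside Cdk8, the kinase of the Mediator complex, scored 514.1 and 262.0 for LSD1 and 287.7 and 110.2 for HDAC3. The region whose nearest gene was Pex2, a peroxisome assembly factor 282080 bp away, scored 453.6 and 228.5 for LSD1 and 231.3 and 113.8 for HDAC3. All 3 were in bin 1 of both proteins, with pooled STAT5A scores without IL3 of 215.8, 134.1 and 117.3. They also lay in all 6 pooled lists of the series, as did the Rpp25 and Manba regions below. Others stood lower in the HDAC3 order than in the LSD1 order of the 2328 shared regions. Gpr84, a receptor of myeloid cells, scored 362.9 and 347.4 for LSD1 and 33.0 in HDAC3 replicate 2 alone, and in the pooled scores it was at rank 4 for LSD1 and 585 for HDAC3. Rpp25, a subunit of RNase P, scored 302.4 and 356.5 for LSD1 and 39.5 in HDAC3 replicate 1 alone, at ranks 5 and 444. A region inside Manba, a lysosomal mannosidase gene, scored 151.2 and 472.3 for LSD1 and 84.6 and 29.4 for HDAC3, at ranks 2 and 27, near the top of both. Of the shared regions, 304 were in the upper 25% of both scores, 51 were in the upper 25% for LSD1 and the lower 25% for HDAC3, and 32 were the reverse.

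The 71 regions in all 4 lists mostly lay away from gene starts and ends. Of them 70.4% lay over 10 kb from any gene bound and 4.23% within 1 kb, while 45.1% were inside a gene. STAT5A without IL3 overlapped 81.7% and 57.7% were in all 6 pooled lists of the series, against 15.7% and 1.10% of all pooled LSD1 regions and 25.8% and 5.05% of all pooled HDAC3 regions. Of the shared pooled LSD1 regions, a nearer comparison, the shares were 33.5% and 7.95%. All 71 lay in both pooled lists without IL3, so part of the 6-list share was set by how they were chosen. Leaving out regions present in all 6 pooled lists left 30 regions in all 4 lists, and the rank correlation over shared pooled regions was 0.44. Whether such regions are enriched with any antibody was not tested.

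A larger share of LSD1 than of HDAC3 regions lay at gene starts in all 4 whole lists, though not among their highest-scoring regions. A region within 1 kb of the 5′ end of a gene, and not of a 3′ end, made up 26.0% and 24.7% of the LSD1 lists and 10.2% and 11.2% of the HDAC3 lists, and the groups did not overlap. LSD1 averaged 25.4% ± 0.93 and HDAC3 10.7% ± 0.70 (SD, n = 2 each). The difference of 14.7 percentage points reached p = 0.333 in the exact permutation test (two-sided), the smallest possible, and an adjusted p of 0.556 over 5 tests. It was 14 to 15.3 points with any 1 library left out. Among the 500 highest-scoring regions of each list the shares were 19.4% and 4.50% for LSD1 and 5.21% and 10.5% for HDAC3, a difference of 4.08 points with overlapping groups. Strand was known for 17491 of the 21883 protein-coding genes, and the shares are over regions whose distance to such a gene could be read.

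Gene 3′ ends set the HDAC3 replicates apart. Regions within 1 kb of a 3′ end made up 1.32% and 1.37% of the LSD1 lists and 1.44% and 11.8% of the HDAC3 lists. The difference of -5.26 points (two-sided exact permutation p = 0.333, adjusted p = 0.556) was -0.095 without HDAC3 replicate 2. With both kinds of end and genes without strand counted, 34.3% and 32.0% of LSD1 and 14.6% and 30.4% of HDAC3 regions lay within 1 kb of a gene bound. That difference of 10.7 points (two-sided exact permutation p = 0.333) was 2.78 without HDAC3 replicate 1, 18.6 without HDAC3 replicate 2, and -2.20 among the 500 highest-scoring regions of each list. STAT5A without IL3 overlapped 32.1% and 15.5% of LSD1 regions and 31.8% and 32.5% of HDAC3 regions, a difference of -8.31 points (two-sided exact permutation p = 0.667). It was 0.0097 points without LSD1 replicate 2, and among the 500 highest-scoring regions of each list it was 2.1.

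**Figure D3:**
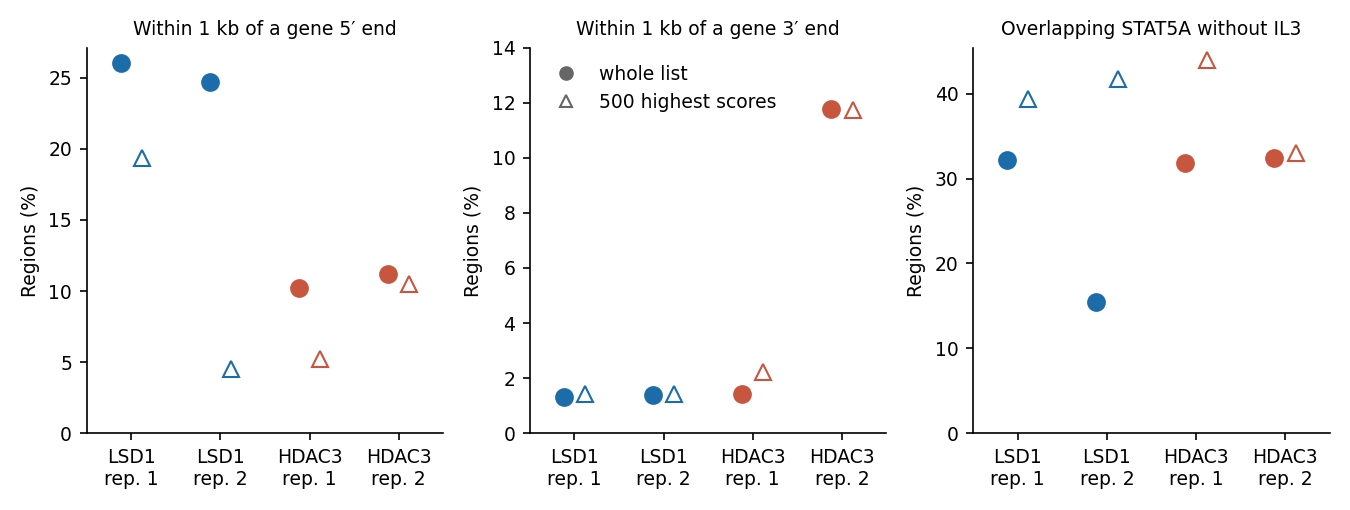
Share of regions (y axes, percent) within 1 kb of a gene 5′ end (left), within 1 kb of a gene 3′ end (middle) and overlapping the pooled STAT5A list without IL3 (right), for each LSD1 and HDAC3 replicate. Filled circles are whole lists and open triangles the 500 highest-scoring regions. The LSD1 circles lie above the HDAC3 circles at 5′ ends, and HDAC3 replicate 2 stands alone at 3′ ends with 11.8%.

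Regions bound by LSD1 alone lay at gene starts most often among the 3 pooled classes. Of the pooled LSD1 regions alone 28.4% lay at a 5′ end, against 16.8% of shared regions and 23.6% of HDAC3 regions alone. STAT5A without IL3 overlapped 12.8% of LSD1 regions alone, 33.5% of shared regions and 10.4% of HDAC3 regions alone. The lists made after IL3 gave a further view with libraries that the classes did not use. Pooled LSD1 with IL3 covered 48.9% of LSD1 regions alone, 77.9% of shared regions and 24.6% of HDAC3 regions alone, and pooled HDAC3 with IL3 covered 2.23%, 19.3% and 5.59%. Transfer RNA genes, transcribed by RNA polymerase III, held few regions of any class within 100 bp, 33 of the 14558 LSD1 regions alone (0.23%), 2 of the 2328 shared regions (0.086%) and 0 of the 1019 HDAC3 regions alone. These shares were not tested.

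The strongest LSD1 regions without HDAC3 were in both LSD1 replicates. After Tigar came a region inside Plin3, a lipid droplet coat gene (196.6 and 316.9 in the LSD1 lists), and one 4319 bp from a bound of Cebpe, a transcription factor of granulocytes (181.4 and 262.0). The rest of the first 10 were nearest Yae1d1, Ermp1, Xntrpc, Wnt5b, Zfp36l2, Papss2 and Sertad2, with 60.5 to 166.3 in LSD1 replicate 1 and 152.4 to 201.1 in replicate 2. None of the 10 was in an HDAC3 list without IL3, though those nearest Ermp1 and Sertad2 were in the pooled HDAC3 list with IL3 (21.1 and 19.3), and 1 of them, Tigar, lay within 1 kb of a gene bound.

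HDAC3 regions alone split by replicate and by how near LSD1 was. The strongest, 20 bp from a bound of Nfe2, the erythroid and megakaryocytic factor, scored 90.2 and 51.4 in the HDAC3 lists. An LSD1 region of replicate 2 scoring 121.9 began 4 bases beyond it, so the class followed from the 1 bp rule. Over the 1019 pooled HDAC3 regions alone, 292 (28.7%) had a region of some LSD1 list within 200 free bases. Of the 14558 LSD1 regions alone, 429 (2.95%) had an HDAC3 region as near. These shares are not on equal terms, since the pooled LSD1 list has 16886 regions and the pooled HDAC3 list 3347. Counting regions up to 200 bases apart as shared, a choice made after seeing the data, brought the shared part to 15.2% of LSD1 and 76.8% of HDAC3 regions. The second strongest, nearest Cspg5, was in LSD1 replicate 1 with a score of 181.4 but not in the pooled LSD1 list.

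In HDAC3 replicate 2, the 230 regions outside every LSD1 list lay largely inside genes and at their 3′ ends. Of these regions 76.5% were inside a gene and 23.8% within 1 kb of a 3′ end, and the 500 bp just upstream of 3′ ends alone held 19.4%. For the 244 regions of HDAC3 replicate 1 outside every LSD1 list the shares were 48.8% inside a gene, 1.27% at a 3′ end and 19.4% at a 5′ end. Among the highest of replicate 2 were those in Rpl8 (69.8) and Rps3 (66.1), genes of ribosomal proteins, and at the 3′ end of Cmtm7 (62.4). Rack1, a protein of the small ribosomal subunit, held 4 such regions in its 5.9 kb, and Atp5b, Eef1b2, Nfe2 and Rps3 held 3 each. None of those in Rack1, Atp5b, Eef1b2 and Rps3 was matched by a region of HDAC3 replicate 1 in the same gene. Ribosomal protein genes have near-identical processed copies, and how the authors placed reads that match several copies was not stated, so values there are uncertain. Of the 230 regions 1.30% were in HDAC3 replicate 1, whereas 52.1% of the 303 regions of replicate 2 inside an LSD1 list were. In the lists made after IL3, 1.30% of the 230 were in HDAC3 replicate 1 and 13.0% in HDAC3 replicate 2. Of the whole list of replicate 2 without IL3 these shares were 15.0% and 9.19%. The same shares of the 244 regions of replicate 1 were 4.92% and 0, against 16.4% and 1.16% of its whole list. The HDAC3 lists with IL3 were short, with 683 and 234 regions. The cause was not tested.

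**Figure D4:**
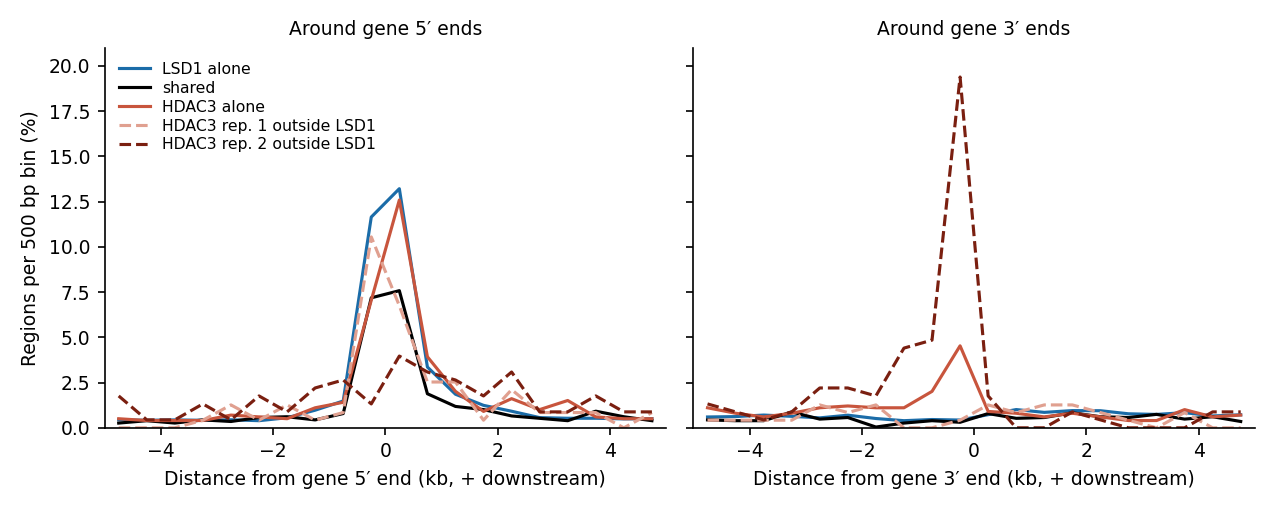
Share of the regions of each class (y axis, percent per 500 bp bin) by distance of the region centre from the nearest gene 5′ end (left) and 3′ end (right) in kb (x axis, positive downstream), for regions of LSD1 alone, shared, HDAC3 alone, and each HDAC3 replicate outside every LSD1 list. LSD1 alone reached 13.2% and HDAC3 alone 12.6% just downstream of 5′ ends, shared regions 7.58%, and HDAC3 replicate 2 outside LSD1 reached 19.4% just upstream of 3′ ends.

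The strongest regions of HDAC3 replicate 1 outside LSD1 were of another kind. That 67462 bp from Zfp36l2, an RNA-binding regulator of messenger decay, scored 124.1. An LSD1 region lay 40 bases from it, and 18 bases from its merged form described above. Others were near Acsf3 (90.2), inside Arhgap6 (73.3), at S100a10 (67.7), inside Gse1 (67.7) and inside Zfpm1, the GATA1 partner FOG1 (67.7, with LSD1 16 bases away). LSD1 was within 200 free bases of 38.9% of these 244 regions and 14.8% of the 230 of replicate 2.

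Several loci carried many regions of both proteins. Gse1, a coiled-coil protein that co-purifies with CoREST complexes in human cells, held 31 pooled LSD1 and 14 pooled HDAC3 regions over 353 kb, 8 of the HDAC3 ones shared. Runx1, the haematopoietic transcription factor, held 10 LSD1 and 8 HDAC3 regions, and all 8 were shared. Rack1 held 2 pooled LSD1 and 6 pooled HDAC3 regions, and its replicate lists held 0 regions in HDAC3 replicate 1 and 6 in replicate 2. At Gfi1b, whose product is an LSD1 recruiter, 7 pooled LSD1 regions lay within 20 kb of the gene. Those scoring 276.4, 101.4, 111.6 and 210.5 were shared with HDAC3 (55.6, 31.1, 31.1 and 40 in the pooled HDAC3 list), and the promoter region of 121.7 printed above, with 2 weaker ones of 22.8 and 17.8, was not.

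In the pooled lists most genes with HDAC3 nearby also had LSD1 nearby, which rested on LSD1 replicate 2. Of 21883 protein-coding genes, 43.4% had a pooled LSD1 region within 10 kb, 10.3% a pooled HDAC3 region, 9.54% both, 33.8% LSD1 and not HDAC3 and 0.74% HDAC3 and not LSD1. LSD1 was near 92.8% of the HDAC3 genes, and HDAC3 was near 22.0% of the LSD1 genes. Between the replicate 1 lists these shares were 24.6% and 26.1%, and between the replicate 2 lists 91.6% and 4.58%. The shares over all genes are the background for the gene lists, which describe where the members fall and were not tested. By replicate, 3.85% and 41.5% of all genes had LSD1 within 10 kb, and 4.09% and 2.07% had HDAC3. Scores given for a listed gene are the highest of any region within 10 kb in each list, and may come from different regions. A gene with both proteins nearby need not have a shared region. A region near several genes counts for each of them.

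Among erythroid and other haematopoietic factors, 14 of 18 had LSD1 and 11 had HDAC3 within 10 kb, 10 of them both. Gata2, Klf1, Zfpm1, Nfe2, Runx1, Fli1, Hhex, Lyl1, Cbfa2t3 and Tal1 had both, Gata2 alone among them without a shared region. Lyl1, a helix-loop-helix factor related to TAL1, had top scores of 105.8 and 161.5 in the LSD1 lists and 56.4 in HDAC3 replicate 1. Cbfa2t3 (ETO2), a corepressor that binds NCoR, had 166.3 and 146.3 for LSD1 and 95.9 in HDAC3 replicate 1. Hhex had 75.6 and 124.9 for LSD1 and 28.2 and 33.0 for HDAC3. Of 18 B lineage genes 8 had LSD1 (44.4%, against 43.4% of all genes) and 1 had HDAC3 (5.56%, against 10.3%). The gene with HDAC3 was Cd79a, the signalling chain of the B cell receptor. Vpreb1, Igll1, Ikzf1, Rag1, Ikzf3, Tcf3 and Bach2 had LSD1 and not HDAC3. Pax5, Ebf1 and Il7r were among those with neither. Of myeloid and mast cell genes 11 of 18 had LSD1 and 6 HDAC3, among them Cebpe, Spi1 and Mpo. In HDAC3 replicate 2 there were 0, where only 2.07% of all genes had a region.

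In the pooled lists 53.8% of NF-kB and 50% of BCL2 family genes were near HDAC3, against 10.3% of all genes. Of 13 NF-kB genes 11 had LSD1 and 7 HDAC3, led by Nfkb1 (60.5 and 124.9 for LSD1, 50.8 and 25.7 for HDAC3). By replicate 3 and 2 of the NF-kB genes had HDAC3 (23.1% and 15.4%, against 4.09% and 2.07% of all genes). Of 14 BCL2 family genes 10 had LSD1 and 7 HDAC3, each of the 7 with LSD1 too. In the replicate lists 5 (35.7%) had HDAC3 in replicate 1 and 0 in replicate 2, against 4.09% and 2.07% of all genes. Bcl2, Bcl2l11 and Bad had no shared region within 10 kb. Bbc3 (PUMA), a killer of factor-deprived cells, had 75.6 and 109.7 for LSD1 and 20 in the pooled HDAC3 list, and Bcl2l11 (BIM) had 75.6 and 36.6 for LSD1 and 28.2 in HDAC3 replicate 1. Of 18 cell cycle genes 11 had LSD1 and 6 HDAC3.

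In the IL3 receptor, JAK-STAT and SOCS list 20 of 22 genes had LSD1 and 7 HDAC3. Csf2rb2, a beta subunit of the IL3 receptor, had 94.5 in LSD1 replicate 2 and 50.8 and 47.7 in the HDAC3 lists. The feedback inhibitors Cish (75.6 and 67.0 for LSD1) and Socs1 (82.3 in LSD1 replicate 2) had no HDAC3 region. Of 22 immediate early genes 18 had LSD1 and 6 HDAC3, with 0 in HDAC3 replicate 2, where only 2.07% of all genes had a region. Zfp36 had 75.6 and 137.1 for LSD1 and no HDAC3 region, and Egr1 had 75.6 and 48.8 for LSD1 and 45.1 in HDAC3 replicate 1.

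Some genes of the 2 corepressor families had both proteins nearby. Of 16 CoREST and LSD1 partner genes 13 had LSD1 and 4 HDAC3, and of 17 NCoR and HDAC3 partner genes 13 had LSD1 and 5 HDAC3. Tbl1xr1 had top scores of 75.6 and 57.9 for LSD1 and 107.2 and 33.0 for HDAC3. The region of 107.2, at its start, scored 42.7 in LSD1 replicate 2. It had no call in LSD1 replicate 1 or HDAC3 replicate 2. Rcor2, a CoREST scaffold, had 75.6 and 45.7 for LSD1 and 50.8 and 25.7 for HDAC3, and Ctbp1 had 105.8 and 36.6 for LSD1 and no HDAC3 region.

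Housekeeping lists had LSD1 nearby more often than HDAC3, as did every other list and all genes (43.4% against 10.3%). Of 18 glycolysis genes 17 had LSD1 (94.4%) and 3 HDAC3 (16.7%). Pkm, the pyruvate kinase, had 151.2 and 106.6 for LSD1 and 20 in the pooled HDAC3 list. Of 70 histone genes 52 had LSD1 (74.3%) and 4 HDAC3 (5.71%). Within 1 kb 24 of them had LSD1 (34.3%), against 5920 of all 21883 genes. Of 78 mitochondrial ribosomal protein genes 53 had LSD1 (67.9%) and 10 HDAC3 (12.8%). Of 78 cytosolic ribosomal protein genes 46 had LSD1 (59.0%) and 13 HDAC3 (16.7%), 36 of them LSD1 and not HDAC3. By replicate, 4 and 42 had LSD1, against 3.85% and 41.5% of all genes, and 4 and 8 had HDAC3, against 4.09% and 2.07% of all genes. Of 22 genes of other tissues 4 had LSD1 and 0 HDAC3.

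**Figure D5:**
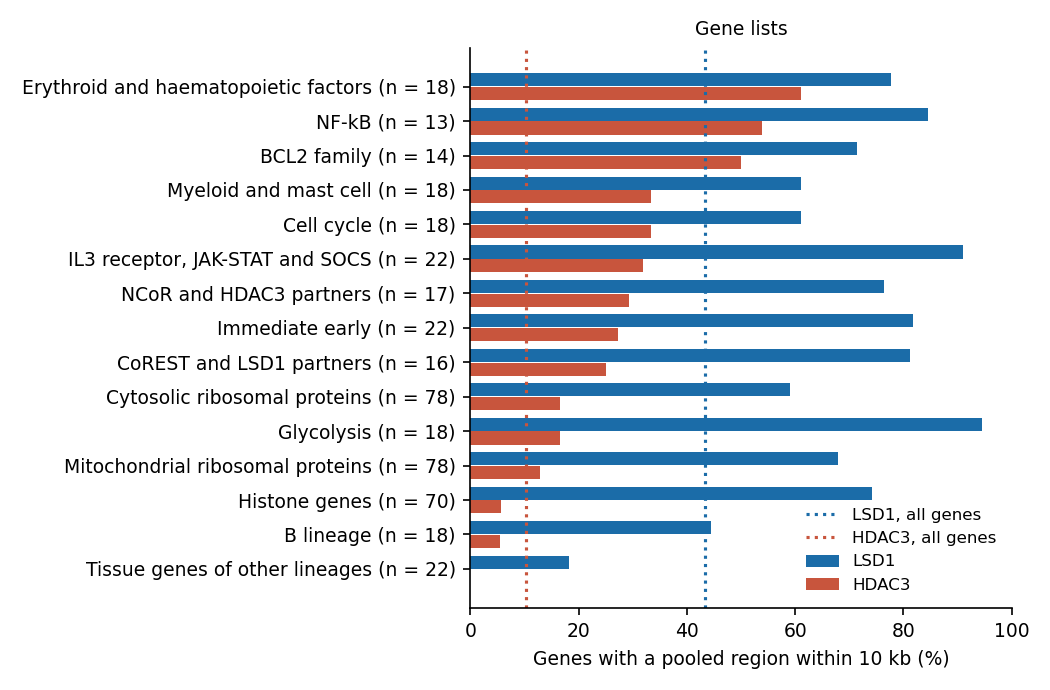
Share of genes (x axis, percent) with a pooled LSD1 region (upper bar of each pair) and a pooled HDAC3 region (lower bar) within 10 kb, for 15 gene lists ordered by the HDAC3 share, with n genes each. Dotted lines are the shares over all 21883 genes, 43.4% for LSD1 and 10.3% for HDAC3. HDAC3 was near 11 of 18 erythroid and haematopoietic factors and 1 of 18 B lineage genes.

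Promoter windows reached by the 3 pooled classes had like shares of GC-rich motifs, while the replicate lists differed more. Of 32851 RefSeq windows (250 bases before a start to 50 after it), 4157 overlapped a pooled LSD1 region only, 509 regions of both and 157 an HDAC3 region only. The SP motif GGGCGG was in 71.6% of the LSD1 windows, 69.2% of the windows with both and 70.7% of the HDAC3 windows, against 35.7% of all windows, with both strands searched. The ETS motif CCGGAAG was in 23.6%, 21.6% and 24.2%, against 8.86%. Median CpG counts were 24, 25 and 25, against 7 in all windows. By replicate, the SP motif was in 77.0% and 69.9% of the 235 and 4168 LSD1 windows and in 57.1% and 60.8% of the 217 and 51 HDAC3 windows, with median CpG counts of 30 and 24 for LSD1 and 21 and 19 for HDAC3. The RUNX motif TGTGGT was in 8.94% and 13.5% of the LSD1 windows and 18.9% and 19.6% of the HDAC3 windows, against 16.8% of all windows. Neither the SP nor the RUNX shares of the 2 proteins overlapped, though the HDAC3 RUNX shares lay near that of all windows. The GATA shares were also apart, with 2.98% and 2.18% for LSD1 and 5.07% and 7.84% for HDAC3. So were those of the AP1 motif TGANTCA, with 5.53% and 5.13% for LSD1 and 9.68% and 7.84% for HDAC3. The shares of the other motifs searched overlapped. With 2 lists a protein, even fully separate shares cannot show a difference beyond chance, and these differences were not tested. By pooled class, the STAT motif TTCNNNGAA was in 6.18%, 4.32% and 5.73%, against 8.30%. By these classes the GATA motif AGATAAG was in 1.85%, 3.93% and 0.64%, against 3.04%. The 0.64% was 1 of 157 windows, whereas both HDAC3 replicate shares lay above 3.04%. Motif matches may overlap one another, and no match says only that the letters were not in the window.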

How the data were processed

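ChIP-seq region lists of LSD1 and HDAC3 without IL3 were analysed, 2 biological replicates and 1 pooled list for each protein, with the STAT5A and with-IL3 lists as support. Each region carries a score, as deposited by the authors. Per the submitters' processing notes, Trimmomatic 0.30, Bowtie2 2.1.0, Picard 1.92, HOMER 4.8 and mm10 were used. The peak-calling settings and the control were not stated. Scores ranked regions within a list. Width is fixed within a list, so that it carries no information on the extent of binding, and 7 regions on unplaced sequences were dropped.

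Computation ran in Python 3.11.15 (numpy 2.4.6, pandas 2.3.3, scipy 1.17.1; figures with matplotlib 3.10.9). Replicate lists were merged by overlap. Gene bounds came from RefSeq protein-coding genes, and strand from the RefSeq promoter table of GRCm38.p6. Over replicate lists, region number and shares were put to an exact permutation test, two-sided, with Benjamini-Hochberg adjustment over 5 tests, at a threshold of 0.05. Shares of regions have 95% Wilson intervals, which cover counting error only. The p-value is the share of relabellings of the lists between the proteins that give a difference at least as large. With 2 lists a protein it can take few values, so it does not measure the spread between libraries. Named genes are the nearest genes of the 10 highest-scoring regions of each class and up to 6 genes of each list with the highest-scoring regions. Jak2, Sumo3, Milr1, Tfr2, Mpo, Spi1, genes with many regions and those without any region were picked with their values in view. The members and the 15 gene lists were chosen with earlier results of these data known. Overlap, merging, rank and step routines were tested on simulated data. Alternatives were a stricter overlap, higher scores alone, 1 library left out and other gene windows. The 5′ end and 3′ end shares, the comparison within score bins and the 200-base rule were added after seeing the data.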

Additional observations from a re-analysis of the deposited data

How the results depend on the processing

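With 2 lists a protein no test over lists can pass 0.05. The weakest regions stood at 4 or 5 steps in every list, so a region of 1 protein alone is one at which the other was not called at this depth.

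With the 500 highest-scoring regions of each list, the gene-bound difference was -2.20 points and the STAT5A difference 2.1. Merged regions with LSD1 in both replicates and no HDAC3 then numbered 117, with HDAC3 in both and no LSD1 44, and in all 4 lists 40. The shared part was then 36.2% of each pooled list, the rank correlation 0.21, the median score of shared LSD1 regions 1.12 times that of LSD1 alone, and 75.5% of HDAC3 regions alone were in LSD1 with IL3. HDAC3 replicate 2 has 533 regions, so this setting barely changes it. With the upper 50% of each list by score the 3 merged counts were 253, 2 and 38, the HDAC3 score ratio 1.10 and the share of HDAC3 regions alone in LSD1 with IL3 36.0%. With an overlap of at least 50% of the shorter region the HDAC3 ratio was 1.12. Without regions in all 6 pooled lists, 30 merged regions were in all 4 lists. Within 1 kb in place of 10 kb, 5920 genes had LSD1, 961 HDAC3 and 793 both.

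With 1 library left out, the remaining replicate list stood in for the pooled list of its protein. The region number difference then ran between 0.11 and 4.08 (log2), the gene-bound difference between 2.78 and 18.6 points, the STAT5A difference between -16.6 and 0.0097, the 5′ end difference between 14 and 15.3 and the 3′ end difference between -10.4 and -0.095. Merged regions with LSD1 in every remaining list and no HDAC3 ran between 484 and 14344, with HDAC3 and no LSD1 between 4 and 306, and in all lists between 65 and 290. The HDAC3 share overlapping LSD1 ran between 11.3% and 83.3%, lowest without LSD1 replicate 2, and the LSD1 share overlapping HDAC3 between 1.75% without HDAC3 replicate 1 and 37.5% without LSD1 replicate 2. The rank correlation ran between 0.33 and 0.50, the LSD1 score ratio between 1.20 and 2.50 and the HDAC3 ratio between 1.00 and 1.38. The share of HDAC3 regions alone in LSD1 with IL3 ran between 15.1% and 56.6%. Merged counts move by construction, since fewer lists must agree.

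The replicate numbers are only shared numbers. With the replicate block, the differences kept their values, 2.09 (log2), 10.7, -8.31, 14.7 and -5.26 points, and the exact paired p was 0.5 for the gene-bound, 5′ end and 3′ end differences, the smallest that 2 pairs allow, and 1 for the region number and STAT5A differences.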
